A study of Mus musculus with 2 samples.

Results

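The genes described here code for the building blocks and motors of microtubules and actin filaments: tubulins, kinesins, cytoplasmic dynein chains, actins, actin-related proteins, alpha-actinins, capping protein, cofilins, profilins, tropomyosins and myosins. They were taken by symbol, and 75 of the 7413 genes with a named probe qualified, 41 of microtubules and 34 of actin filaments. Acta2 and Mylk, genes of the contractile myofibroblast, were left out by that rule. Signals of 89 probes stood for the 75 genes. The FGF2 culture consisted of CD1 mouse embryonic fibroblasts, primary cells whose growth had been stopped with mitomycin C, a DNA crosslinker, plated on gelatine at 55000 cells per square centimetre and then kept for 24 h in medium for human embryonic stem cells with 40 ng/ml of FGF2. The control culture received the same cells, arrest, plating and medium, with no FGF2 added. FGF2 is a growth factor that acts on fibroblasts through receptor tyrosine kinases. Total RNA of each culture went onto 1 Illumina bead array; without replicates no test was run, and every ratio describes this pair of arrays. The comparison asked which transcripts of such feeder cells differ after a day with the factor.

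Microtubules are hollow polymers of alpha and beta tubulin along which kinesins and dynein carry cargo, and which form the spindle in dividing cells. Actin filaments carry the shape, adhesion and movement of fibroblasts: the Arp2/3 complex branches them, cofilin and profilin turn them over, tropomyosin lines them, and conventional myosin pulls on them. Genes for actin and its partners are classical targets of SRF, a transcription factor that binds the CArG box and whose coactivators sense unpolymerized actin.

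The FGF2 array detected 8129 of its 24044 probes and the control array 8210, a probe being called detected at a detection score of at least 0.99. Of the 75 genes, 40 were detected on at least 1 array and 39 on both, 22 of microtubules and 18 of actin filaments. The ratio used throughout is the log2 of FGF2 over control after quantile normalization, taken on the brightest detected probe of a gene. Its error from the spread of beads had a median of 0.071 on the log2 scale among the detected genes. As a wider error, probes that read the same gene were compared over 305 pairs, and their log2 ratios had an SD of 0.18. The cells carried fibroblast transcripts: all 5 fibroblast markers with a named probe (Col1a1, Col1a2, Col3a1, Dcn and S100a4) were detected on both arrays. These 5 summed to a normalized signal of 13138 on the FGF2 array and 18255 on the control array, and they did not move one way. The 3 collagen genes were lower with FGF2. Col1a1 read 2697 with FGF2 and 9119 in the control, Col1a2 393 with FGF2 and 967 in the control, and Col3a1 1424 with FGF2 and 2113 in the control. Dcn read 6061 with FGF2 and 4528 in the control, and S100a4 read 2562 with FGF2 and 1527 in the control. The 1 skeletal muscle marker with a named probe, Casq1, and the 1 cardiac marker, Ryr2, were not detected on either array. In whole cultures, fewer cells of a type and less RNA per cell cannot be told apart.

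As a whole these genes differed little between the cultures. Of the 40, 3 were at least 1.5-fold higher with FGF2 (Tuba1c, Tpm3 and Arpc3) and 1 was at least 1.5-fold lower (Myh7), against 4.34% higher and 5.57% lower among all 8379 genes and unnamed probes detected. In either direction that was 10.0% of the 40, close to the 9.92% of all genes. None of the 39 genes detected on both arrays reached 2-fold, a size that 3.22% of all genes had, and for Myh7 only a bound is known. The median log2 ratio of the 40 was 0.01, equal to 0.01 over all genes, and 24 of the 40 (60%) lay within 1.2-fold, as did 65.6% of all genes.

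Microtubule and actin genes were then set against each other. Among the 22 microtubule genes 1 was 1.5-fold higher and none lower (4.5%). Among the 18 actin genes 2 were higher and 1 lower (16.7%). The share of all genes was 4.34% higher and 5.57% lower, or 9.92% in either direction, and counts this small cannot separate the classes from it. The median log2 ratio was 0.03 for microtubule genes, with quartiles of -0.09 and 0.14, and -0.08 for actin genes, with quartiles of -0.25 and 0.15. The medians differed by 0.10, or by 0.01 with median scaling, and with 1 array per culture this difference has no error of its own. The wider scatter was that of the actin genes, with an SD of 0.39 against 0.28 for microtubule genes and 0.42 for all genes. The actin SD includes the bound of Myh7, and the classes differ in brightness. At or above the median detected signal on the brighter array were 15 of the 18 actin genes and 14 of the 22 microtubule genes. Of all genes detected on both arrays, 5.59% were 1.5-fold apart under a mean signal of 500, and 15.3% from 500 to 2000. Whether brightness accounts for the scatter was not tested.

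**Figure D1:**
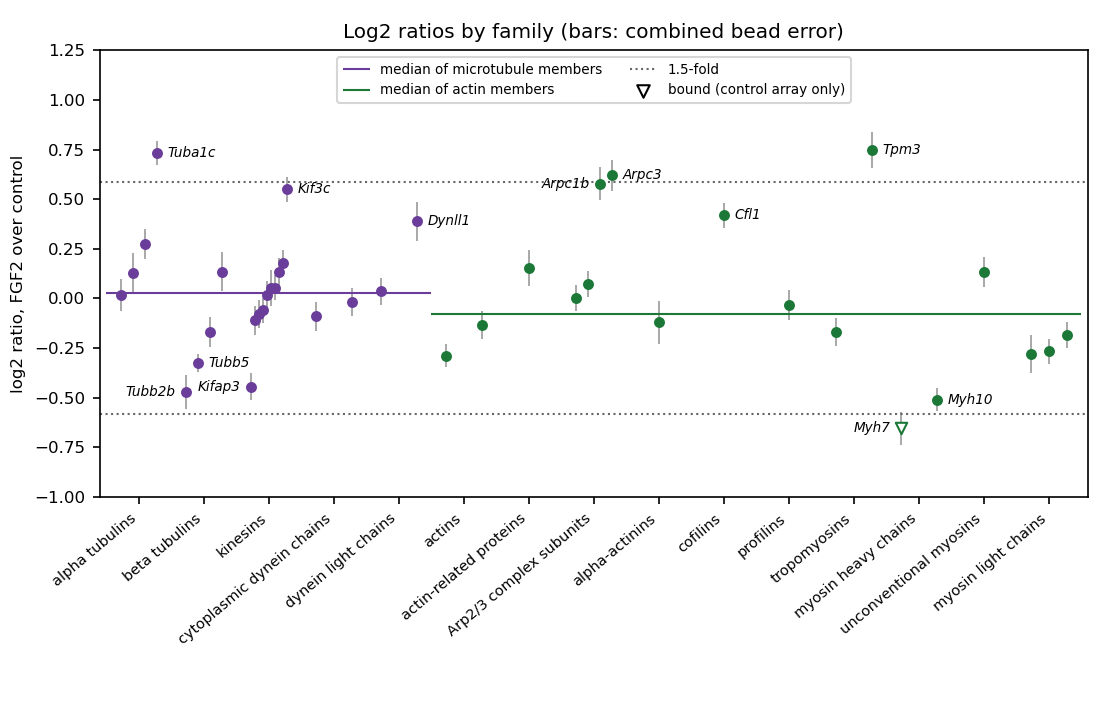
Log2 ratios of the 40 detected genes (vertical axis, FGF2 over control) by family, microtubule families at the left in purple and actin families at the right in green; bars show the combined bead error, dotted lines 1.5-fold and horizontal lines the medians of 0.03 and -0.08. Tuba1c, Tpm3 and Arpc3 lie above the upper dotted line, and Myh7, an open triangle, is a bound because it was detected on the control array only.

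Alpha tubulins, which pair with beta tubulins to form the microtubule wall, included the microtubule gene furthest from 0. Tuba1c had a normalized signal of 10687 with FGF2, against 6433 in the control, and was 1.66-fold higher (log2 ratio 0.73, bead error 0.060). Tuba1a, the isotype best known from developing neurons, stood at 1297 with FGF2 and 1280 in the control, a log2 ratio of 0.02. Tuba3b, known from testis, had 1066 with FGF2 and 881 in the control (log2 ratio 0.27), and Tuba3a, its near copy, had 315 with FGF2 and 289 in the control (log2 ratio 0.13). All 4 detected alpha tubulins had ratios above 0, but Tuba1a turned to -0.03 in the signals as deposited. Tuba4a and Tuba8 were not detected. Alpha tubulin genes are close in sequence, so how far each probe reads only its own gene is uncertain.

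Beta tubulins leaned the other way in 3 of 4 cases, none of them by 1.5-fold. Tubb5, the general beta tubulin of proliferating cells, had 15878 with FGF2 and 19878 in the control, a log2 ratio of -0.32. This ratio was -0.24 in the signals as deposited. With median scaling it was -0.15 and in the authors' processed table -0.16, both within the probe SD of 0.18. Tubb2b, an isotype of neurons, had 307 with FGF2 and 426 in the control, a log2 ratio of -0.47. Tubb3, another neuronal isotype, had 210 with FGF2 and 236 in the control (log2 ratio -0.17), close to the lowest detected signals of 193 with FGF2 and 192 in the control. Tubb4b was the exception, with 5092 with FGF2 and 4635 in the control (log2 ratio 0.14). The 3 genes below 0 and the 1 above it kept their signs in the signals as deposited, with median scaling and in the authors' processed table. Tubb2b was 1.69-fold lower in that table. No gamma tubulin gene had a named probe, and Tubgcp4 and Tubgcp5, subunits of the ring complex that seeds microtubules, were not detected.

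Of 23 kinesin genes, motors that mostly walk towards the growing ends of microtubules, 10 were detected and all stayed within 1.5-fold. Their median log2 ratio was 0.03. The kinesin-2 genes, motors of transport along cilia and axons, spread the furthest. Kif3c had 624 with FGF2 and 426 in the control, a log2 ratio of 0.55, and its second detected probe gave 0.39. Kifap3, which codes for a kinesin-2 adaptor, had 399 with FGF2 and 544 in the control, a log2 ratio of -0.45. Kif3a (629 with FGF2, 656 in the control) and Kif3b (304 with FGF2, 300 in the control), the pair of motor chains that Kifap3 binds, had log2 ratios of -0.06 and 0.02. In the authors' processed table Kif3c was 1.70-fold higher and Kifap3 1.53-fold lower. The transport motor Kif1b stood at -0.08, Kif1a at 0.05 and Kif21a at 0.05, the last 2 with signals of 222 and 206 with FGF2 and of 214 and 199 in the control.

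Motors of the spindle were close to equal in the arrested cultures. The chromokinesin Kif4 had 348 with FGF2 and 376 in the control (log2 ratio -0.11), and Kif18b, a regulator of spindle microtubules, had 510 with FGF2 and 450 in the control (log2 ratio 0.18). Kif15, the third mitotic kinesin with a named probe out of 13 listed, was not detected on either of its 2 probes. Kifc5b, a minus-end motor with near copies in the genome, stood at 0.13. The other kinesins without detection included Kif5a and Kif5b, chains of conventional kinesin, and Kif7 and Kif27. The pseudogene Kifc5c-ps was not detected either.

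Cytoplasmic dynein, the motor that moves towards microtubule minus ends, stayed within 1.5-fold in all detected chains. The heavy chain Dync1h1 had 583 with FGF2 and 591 in the control (log2 ratio -0.02), and the light intermediate chain Dync1li1 had 212 with FGF2 and 226 in the control (log2 ratio -0.09, or -0.28 in the authors' processed table). The light chain Dynll1, which also binds many proteins outside dynein, had 997 with FGF2 and 761 in the control, a log2 ratio of 0.39. Dynll2, its close relative, stood at 0.04. Dync2h1, the heavy chain of the ciliary dynein, and Dynlt1b were not detected.

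**Figure D2:**
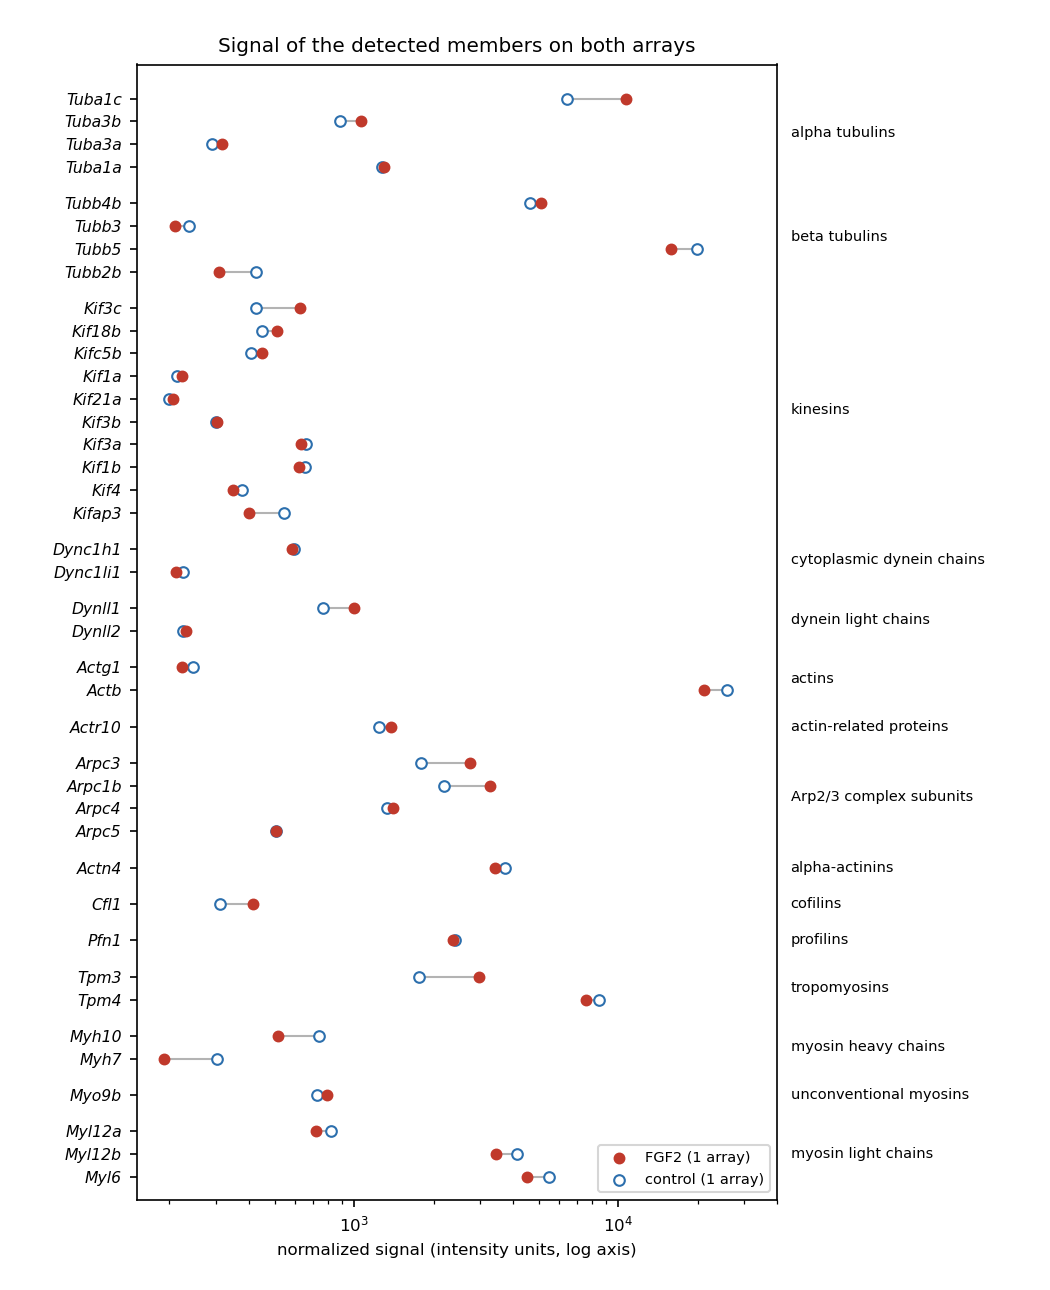
Normalized signal (log axis, intensity units) of the 40 detected genes by family, filled red for the FGF2 array and open blue for the control array, 1 array each. Points of a gene mostly overlap or lie side by side, the widest gaps being those of Tpm3, Tuba1c and Myh7; levels of different genes come from different probes and are not comparable.

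The actins themselves depended on the scaling. Actb, the cytoplasmic beta actin often used for reference, had 21130 with FGF2 and 25817 in the control after quantile normalization, a log2 ratio of -0.29, and its second probe gave -0.12. In the deposited signals the same probe read 22322 with FGF2 and 23271 in the control. Its log2 ratio was -0.06 there, 0.02 with median scaling and 0.02 in the authors' processed table, so no direction can be given. Quantile normalization lay below median scaling by a median of 0.17 among the 99 genes with a mean signal of at least 10000, which include Actb and Tubb5, and by 0.00 among genes under 500. Actg1, the gamma actin, read only 224 with FGF2 and 246 in the control on its 1 named probe (log2 ratio -0.14).

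Subunits of the Arp2/3 complex, which starts branches on existing filaments, were at or above 0. Arpc3 had 2756 with FGF2 and 1793 in the control and was 1.54-fold higher (log2 ratio 0.62, bead error 0.078). Arpc1b had 3270 with FGF2 and 2189 in the control and was 1.49-fold higher, just under the threshold, and passed it in the signals as deposited, with median scaling and in the authors' processed table. Arpc4 had 1406 with FGF2 and 1336 in the control (log2 ratio 0.07), and Arpc5 stood at 505 with FGF2 and 504 in the control. Arpc5 had a log2 ratio of -0.07 in the signals as deposited, whereas the other 3 were above 0 under each scaling. Within one complex, the ratios of Arpc3 and Arpc1b exceeded the probe SD and those of Arpc4 and Arpc5 did not. Actr3, a core subunit, was not detected, and Actr10, which belongs to dynactin, the cofactor of dynein, stood at 0.15.

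Proteins that turn filaments over gave 1 ratio apart from 0. Cfl1 (cofilin 1), which severs filaments, had 416 with FGF2 and 311 in the control, a log2 ratio of 0.42 that became 0.68 in the authors' processed table. Pfn1 (profilin 1), which feeds monomers to growing ends, had 2363 with FGF2 and 2419 in the control (log2 ratio -0.03). Pfn3 and Pfn4 were not detected, nor were the capping protein genes Capza1 and Capza2. Actn4, a crosslinker of stress fibres, had 3420 with FGF2 and 3720 in the control, and its log2 ratio of -0.12 became 0.01 with median scaling. Actn3, the alpha-actinin of fast muscle fibres, was not detected.

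The pair of detected tropomyosins, coiled-coil proteins along the filament, lay on opposite sides of 0. Tpm3 had 2966 with FGF2 and 1764 in the control and was 1.68-fold higher on its brightest probe (log2 ratio 0.75, bead error 0.091). Its second detected probe had 1118 with FGF2 and 894 in the control, a log2 ratio of 0.32, and the mean of both fell short of 1.5-fold. Tpm3 makes several transcripts, and which of them each probe reads was not analysed here. Tpm4 had 7529 with FGF2 and 8456 in the control, a log2 ratio of -0.17, and its 3 probes lay between -0.18 and -0.11. The lower probe of Tpm3, at 0.32, lay above the highest of Tpm4, at -0.11, on this pair of arrays. Nothing here measures how such a gap varies between cultures.

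The detected chains of conventional myosin, the motor that contracts actin bundles, were all below 0, with Myh7, described next, only as a bound. Myh10, the heavy chain of nonmuscle myosin IIB, had 517 with FGF2 and 737 in the control, a log2 ratio of -0.51. The light chain Myl6 had 4524 with FGF2 and 5494 in the control (log2 ratio -0.28). The regulatory light chains Myl12b and Myl12a had log2 ratios of -0.27 and -0.19, with signals of 3437 and 718 on the FGF2 array and 4134 and 816 on the control array. With median scaling the light chains lay between -0.15 and -0.14, within the probe SD of 0.18. Each of these 4 was below 0 in the signals as deposited, with median scaling and in the authors' processed table, where the light chains lay between -0.19 and -0.15. Only Myh10 passed 1.5-fold in that table, at 1.55-fold lower.

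Myh7, the slow myosin heavy chain of heart and muscle, was the one gene past 1.5-fold in the lower direction. It read 190 with FGF2, where its score of 0.984 was just under detection, and 304 in the control. It was therefore at least 1.57-fold lower, a bound whose sign follows from detection on the control array alone, and at least 2.96-fold lower in the authors' processed table. The other 4 muscle-type genes with a named probe, Actn3, Myh1, Myh6 and Myl7, were not detected. Of 8 unconventional myosins, motors of membranes and protrusions, only Myo9b was detected, at 793 with FGF2 and 723 in the control (log2 ratio 0.13). Myo7a just missed detection, with scores of 0.612 with FGF2 and 0.989 in the control.

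**Figure D3:**
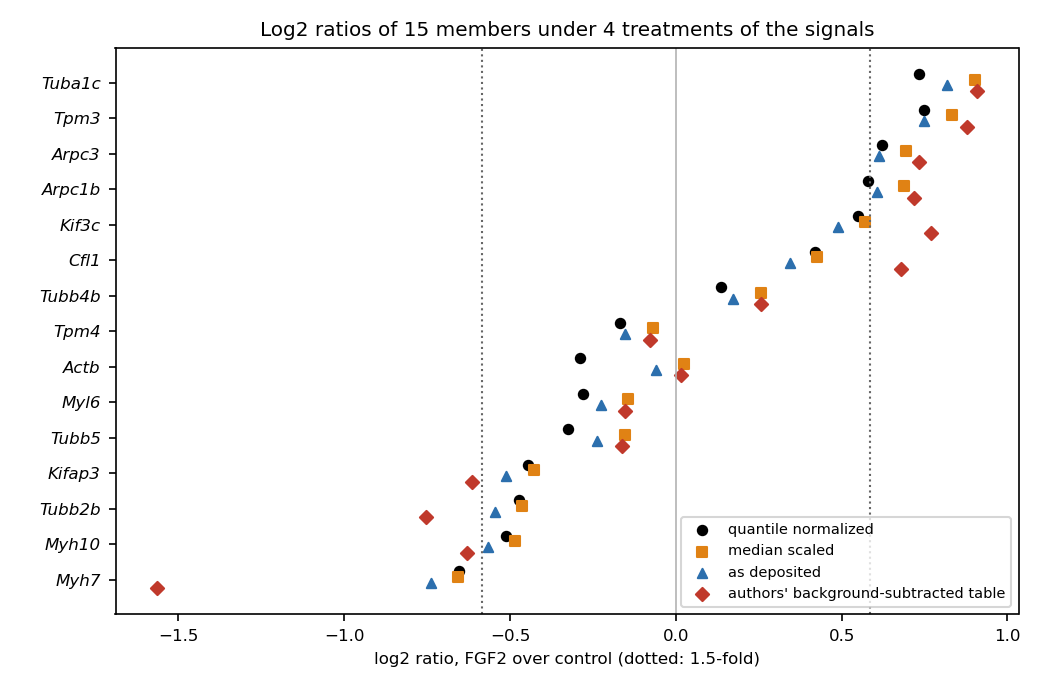
Log2 ratios (horizontal axis, FGF2 over control) of 15 of the genes under quantile normalization, median scaling, the deposited signals and the authors' background-subtracted table; dotted lines mark 1.5-fold. Actb crosses 0 between treatments, from -0.29 to 0.02, whereas Tuba1c, Tpm3 and Arpc3 stay above 1.5-fold under each of the 4, and Kif3c, Cfl1, Kifap3, Tubb2b and Myh10 pass it only in the authors' table.

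The deposited signals contain background, which shrinks the ratios of dim genes. In the authors' processed table, from which background had been taken, 6 of the 40 genes passed 1.5-fold on the higher side and 4 on the lower side. There the share of all genes was 11.2% higher and 11.3% lower, or 22.4% in either direction, against 25% of the 40. The 10 genes included the 4 named above, and the others were Arpc1b, Kif3c and Cfl1 on the higher side and Myh10, Tubb2b and Kifap3 on the lower side. Across quantile normalization, median scaling, the deposited signals and that table, 30 of the 40 genes kept 1 sign, 15 above 0 and 15 below. The 10 that changed sign were Actb, Actn4, Arpc5, Dync1h1, Dynll2, Kif1a, Kif21a, Kif3b, Pfn1 and Tuba1a.

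Among genes at or above the median detected signal on their brighter array, 29 of these genes remained, with 3 higher and none lower, against 7.04% higher, 8.87% lower and 15.9% in either direction of all such genes.

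The remaining 35 genes were not detected on either array. Their 36 probes had deposited signals from 103 to 184 with FGF2 and from 107 to 197 in the control. Kif21a, with scores of 0.996 with FGF2 and 0.996 in the control, lay just inside the detection limit, and Kifc3, with 0.984 with FGF2 and 0.972 in the control, just outside it. The medians of 138 with FGF2 and 138 in the control were near those of all undetected probes, 133 with FGF2 and 141 in the control. A low signal shows that these probes did not rise above background, and several dim probes belong to genes that most cells express, such as Kif5b, Actr3 and Capza1. Tuba1b, Myh9, Myl9, Tpm1, Tpm2, Actn1 and Kif11 lacked a named probe and are not described.

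Promoter sequence was examined as a property that did not enter the choice of genes. RefSeq windows on GRCm38.p6, running from 250 bases before to 50 after a start, matched 63 of the 75 genes with 71 windows. The CArG box was present in 5 of 36 windows of actin genes (13.9%) and in none of 35 windows of microtubule genes, against 1.63% of all 32851 windows. Those 5 belonged to Actg1, Myl6, Arpc4, Myl7 and Myo1e. The 3 detected ones had log2 ratios of -0.14 (Actg1), -0.28 (Myl6) and 0.07 (Arpc4). None was 1.5-fold apart, but with a share of 9.92% among all genes 3 genes are too few to compare. A link between the boxes and the ratios was not tested. The GC box (GGGCGG or its complement CCGCCC) was in 66.2% of the genes' windows and 35.7% of all windows, and CCAAT or its complement ATTGG in 45.1% and 37.4%. A match in letters is not a bound site, and no match says only that the letters are not in this window.

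The upstream stretches below show the CArG box of an actin and a myosin light chain gene. Also shown are the last 100 bases before the starts of the 3 genes that were 1.5-fold higher, Tpm3 with both of its starts. Capitals mark a CArG box, a GC box or CCAAT on either strand, and all are written 5′ to 3′ along the gene.
Actg1 (chr11:120348551-120348610, minus strand): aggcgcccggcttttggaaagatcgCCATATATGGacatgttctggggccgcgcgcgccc
Myl6 (chr10:128493025-128493084, minus strand): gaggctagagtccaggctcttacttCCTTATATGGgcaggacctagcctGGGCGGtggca
Tuba1c (chr15:99029791-99029890, plus strand): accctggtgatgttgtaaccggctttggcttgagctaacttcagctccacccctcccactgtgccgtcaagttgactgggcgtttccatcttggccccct
Arpc3 (chr5:122391778-122391877, plus strand): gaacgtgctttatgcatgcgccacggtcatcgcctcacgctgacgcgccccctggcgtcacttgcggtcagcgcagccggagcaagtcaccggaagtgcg
Tpm3, first start (chr3:90072551-90072650, plus strand): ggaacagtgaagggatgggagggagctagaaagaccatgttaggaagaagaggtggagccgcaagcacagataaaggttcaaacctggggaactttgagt
Tpm3, second start (chr3:90079421-90079520, plus strand): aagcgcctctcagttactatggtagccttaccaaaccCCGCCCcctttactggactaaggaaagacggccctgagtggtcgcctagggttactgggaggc
The CArG boxes start 90 bases before the start of Actg1 and 50 bases before that of Myl6. None of the windows of Tuba1c, Arpc3 and Tpm3 holds one, which is the usual case, as 1.63% of all windows do.

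Other genes of the cytoskeleton give the surroundings of these values. Of 55 listed genes that bind or service microtubules, 32 had a named probe and 21 were detected. None was 1.5-fold apart, against 9.92% of all genes, and the median log2 ratio was 0.03. The outermost were Nudc, a dynein-associated protein (log2 ratio 0.54), and Mapre2, an end-binding protein (log2 ratio -0.54). In the authors' processed table, where 22.4% of all genes were 1.5-fold apart, Nudc was 1.84-fold higher and Mapre2 1.56-fold lower.

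Of 75 listed actin regulators and adhesion linkers, 46 had a named probe and 37 were detected, of which 1 passed 1.5-fold on the higher side and 4 on the lower side (13.5%, against 9.92% of all genes). In the authors' processed table these were 3 and 7 (27.0%, against 22.4% of all genes). Their median was -0.06, or 0.00 with median scaling. Marcks, a membrane-bound protein kinase C substrate that binds actin, had 1825 with FGF2 and 4841 in the control and was 2.65-fold lower. Palld (palladin), a stress fibre scaffold, was 1.91-fold lower (9119 with FGF2, 17450 in the control). Cnn3 (calponin 3) was 1.59-fold and Limk2, the kinase that inactivates cofilin, 1.57-fold lower, but Cnn3 was within 1.5-fold with median scaling and in the authors' processed table. Cap1, which works with cofilin in recycling actin monomers, was 1.70-fold higher (4115 with FGF2, 2421 in the control). The adhesion protein Zyx had a log2 ratio of 0.45 and the membrane linker Msn (moesin) 0.48.

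Of 25 listed targets of SRF, 9 had a named probe and 8 were detected, with a median log2 ratio of -0.22. Of the 8, 6 lay below 0, or 5 with median scaling and in the authors' processed table, where Actb turns its sign. Of all 8379 genes, 3986 lay below 0. Acta2 was 1.5-fold apart among the 8 (log2 ratio -2.50), or 12.5% against 9.92% of all genes. Zyx was too with median scaling (0.63) and in the authors' processed table (0.63). In that table this made 25%, against 22.4% of all genes. Such shares of 8 genes are too coarse to compare. Ccn1 stood at 0.30. Intermediate filaments are the third filament system, and of their 18 listed genes 11 had a named probe and 5 were detected. Vim and Des were among those without a named probe. Nes (nestin) had 763 with FGF2 and 362 in the control and was 2.11-fold higher. Krt18 was 1.88-fold higher, and Nefm, detected with FGF2 only, at least 1.89-fold higher. Lmna stood at 0.22, and Synm, detected in the control only, had a bound of -0.41. Of these 5 genes 3 were 1.5-fold higher and none lower (60%), against 9.92% of all genes. Only 3 of the 5 were detected on both arrays, and the sign of Nefm follows from detection on the FGF2 array alone. So few genes cannot be compared with the share of all genes. In the authors' processed table Nes was 2.82-fold, Krt18 3.57-fold and Nefm at least 3.95-fold higher, and Synm at least 2.14-fold lower. There 80% of the 5 were 1.5-fold apart, against 22.4% of all genes, with the bounds of Nefm and Synm counted in. Krt18 also marks epithelium, of whose 4 markers with a named probe 2, Krt18 and Cldn4, were detected. Those 2 summed to 608 with FGF2 and 408 in the control, while Krt8 and Krt19 were at background. Nefm and Nes are also known from neural cells. Of the 5 neuron markers with a named probe, only Gap43 was detected, with 3920 with FGF2 and 1219 in the control, and Snap25, Syt1, Syp and Elavl3 were not. The part of either cell type in these ratios was not tested.

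**Figure D4:**
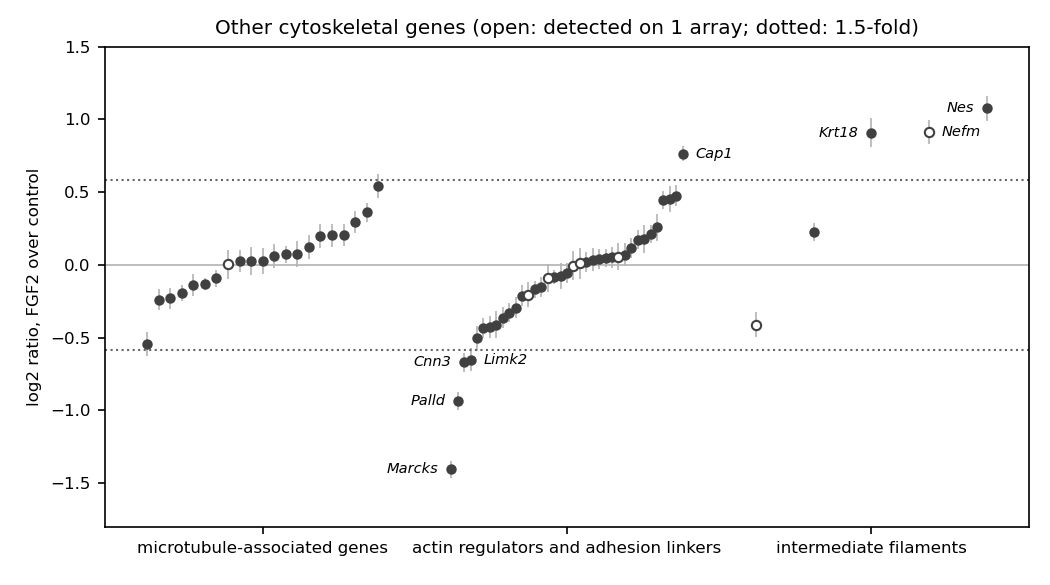
Log2 ratios (vertical axis, FGF2 over control) of the detected genes of 3 further lists, ordered within each list, with combined bead errors; open circles were detected on 1 array and dotted lines mark 1.5-fold. After quantile normalization no microtubule-associated gene passes either line, 4 actin regulators lie below and 1 above, and Nes, Krt18 and Nefm lie above.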

How the data were processed

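RNA of 2 cultures was measured on 1-colour Illumina arrays, after amplification from 300 ng per the labels' protocols. The submitters' processing notes name BeadStudio 1.0. The deposited array files hold, for each probe and per the file headers, a mean intensity, its bead spread and a detection score. The authors' processed table holds linear intensities equal to the signal minus 131.5, times 1.054, for FGF2, and minus 139.2 for the control, wherever the score was at least 0.99.

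Numbers of at least 5 digits after 1 or 2 zeros in a probe ID were read as NCBI gene IDs: 8884 of 9523 matched (93.3%), against 48.6% of the next higher numbers, and 9 probes were named by RefSeq accession. Every name rests on this match. Cflar was not taken as a cofilin. Signals were quantile normalized and floored at the lowest detected signal. Genes were named by a fixed rule (1.5-fold, extremes, small families, several probes); further ones were picked after their values were seen. Genes and lists were chosen with earlier results of these data known. The procedure was tested on simulated data. Python 3.11.15, numpy 2.4.6 and pandas 2.3.3 were used. Alternatives covered scaling, background, floor, detection, brightness, fold, probe choice and class.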

Additional observations from a re-analysis of the deposited data

How the results depend on the processing

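With 1 array per group nothing measures the difference between cultures, and no paired analysis was possible because each group has 1 array. The 3 higher and 1 lower genes (1 and 0 of microtubules, 2 and 1 of actin filaments) became 6 higher and 4 lower (2 and 2 of microtubules, 4 and 2 of actin filaments) both in the authors' processed table and after subtracting the median undetected signal. At 2-fold all counts were 0 on the quantile normalized signals, where Myh7 is a bound; both in the authors' table and after that subtraction 1 gene, Myh7, was at least 2-fold lower. The lower count was 0 with an added constant of 50, among genes detected on both arrays and among the 29 brighter genes, where Myh7 stood at -0.56 or was left out. Averaging probes left 1 higher actin gene, because the second probe of Tpm3 is nearer 0. The difference of medians, microtubule minus actin, ran from 0.01 with median scaling to 0.16 with Actr10 counted as a microtubule gene. Under the scaling and background settings, which can move every gene, 143 of 160 single-gene values lay within the probe SD of the reported ones. None of the genes past 1.5-fold turned its sign there. This is a weak check, because the settings treat the same 2 arrays and the sign of Myh7 follows from detection. The probe SD of 0.18 also exceeds the median absolute log2 ratio of the 40 genes, 0.16. A value could therefore change its sign and still lie within that SD. Signals near background limit the ratios of genes such as Tubb3 and Actg1.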
